A study of Mus musculus with 6 samples.

Results

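The genes described here encode 9 receptor chains through which blood-forming cells sense growth factors and cytokines: Csf3r, Csf2ra, Csf2rb, Csf2rb2, Il3ra, Il6ra, Il6st, Epor and Ifngr1. They were picked by gene symbol in a table of 21684 mouse genes, and all 9 symbols were found. The choice was made with earlier results of these data known. RNA sequencing had been done on haematopoietic cells taken from mouse bone marrow. In 3 libraries the cells had been transduced with an empty vector, and in 3 they overexpressed RUNX1-RARA, a fusion of the blood transcription factor RUNX1 with the retinoic acid receptor RARA from a variant of acute promyelocytic leukaemia. Both groups were therefore transduced cells, and they differed by the fusion. The sources used here do not give the strain, age or sex of the mice, the vector and its promoter, the time after transduction or any selection of transduced cells. Values after ± are SDs, with n = 3 libraries per group throughout, and all levels are FPKM. The comparison asked which receptor genes differed in RNA level between cells with the fusion and vector controls.

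Most of these receptors belong to the class I cytokine receptor family. They have no kinase of their own and signal through bound JAK kinases, which phosphorylate STAT transcription factors. A ligand-binding alpha chain often pairs with a shared signalling chain: the beta common chain serves the receptors for GM-CSF, interleukin-3 and interleukin-5, and gp130 serves interleukin-6 and its relatives. The interferon gamma receptor is of class II and uses JAK1 and JAK2. In bone marrow, G-CSF drives neutrophil production, GM-CSF and interleukin-3 support myeloid cells and progenitors, and erythropoietin drives red cell precursors.

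In the libraries with the fusion, 7 of the receptor genes fell, 1 rose and 1 lay below the level needed for a test. The 3 falls of largest size on the log2 scale were those of Csf2ra, Il6ra and Il6st, followed by Ifngr1 and Csf3r. The shared beta genes Csf2rb and Csf2rb2 fell 1.15-fold and 1.22-fold and were the 2 most abundant of the 9 with the fusion, while Il3ra rose. Adjusted p-values came from limma on log2(FPKM + 1) over 10901 genes that reached 1 FPKM (fragments corrected for gene length and for the number mapped in that library) in at least 3 of the 6 libraries, and a gene was called at an adjusted p under 0.05. All 8 tested receptor genes were called, against 77.7% of all tested genes, so being called sets them little apart. Of the 8, 7 were called lower (31.7% of all tested genes) and 1 higher (46.0%). At least 2-fold on the same scale, 4 were lower (9.72% of all tested genes) and 0 higher (6.12%). The groups did not overlap for any of the 8, as for 79.1% of all tested genes (32.4% lower and 46.8% higher in the fusion libraries). Il6ra and Il6st passed the filter only through the empty vector libraries, so these counts are not independent of the filter. The median log2 fold change of the 8 was -1.34, and that of all tested genes was 0.11.

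**Figure D1:**
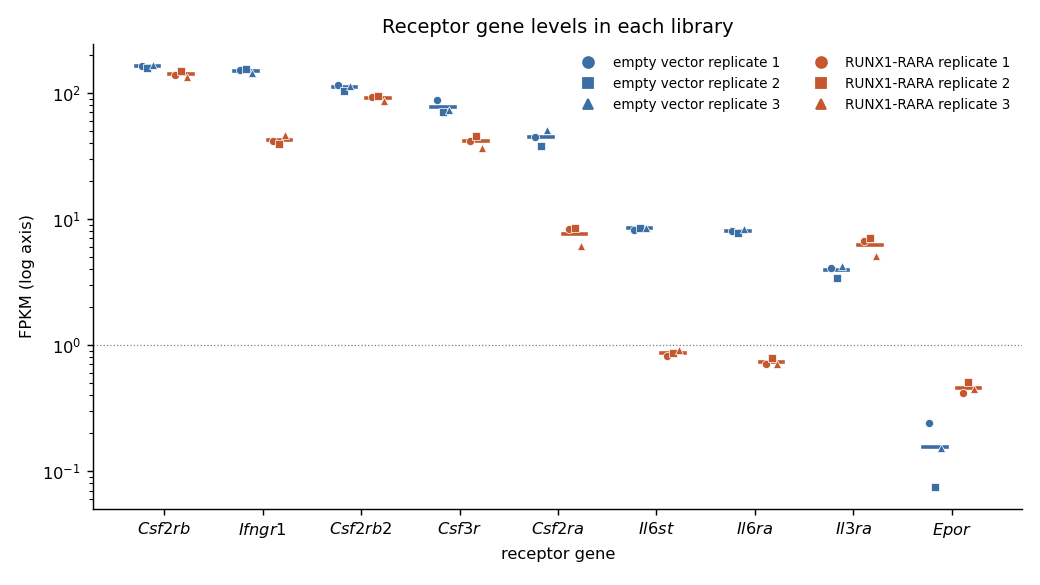
FPKM (log axis) of the 9 receptor genes in each library, ordered by their mean in empty vector libraries; points are libraries, short lines are group means and the dotted line marks 1 FPKM. The groups are separate for each gene, Il3ra and Epor are higher in RUNX1-RARA libraries, and Epor stays under 1 FPKM in all 6.

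In a bulk sample, fewer cells of a type that carries a receptor and less receptor RNA per cell cannot be told apart. Mature neutrophil markers and most monocyte and macrophage markers fell, as most of the receptor genes did. Eosinophil, mast cell and basophil markers went both ways. Over all tested genes, 46.0% were called higher and 31.7% lower (9.72% lower at least 2-fold). All 12 mature neutrophil markers fell, and their summed level went from between 57479.7 and 64490.3 FPKM in empty vector libraries to between 2511.8 and 3077.2 FPKM with the fusion. Of 10 monocyte and macrophage markers 9 fell, with sums of 5544.7 to 6042.7 and 629 to 675 FPKM, and in the fusion libraries Msr1 had a mean of 0.002 FPKM. Of 5 tested eosinophil markers 3 fell and 2 rose (sums of 245 to 252 and 24.1 to 25.4 FPKM). Of 8 mast cell and basophil markers 4 rose and 3 fell. Their sum was 1813.0 to 1927.5 FPKM in controls and 2809.6 to 2946.3 FPKM with the fusion, but without Cpa3, a mast cell protease gene, it was 1218.7 to 1380.3 and 936.0 to 1063.8 FPKM. Of 5 tested stem and progenitor markers 2 rose and 3 fell: Cd34 went from 16.8 ± 0.556 to 155 ± 1.15 FPKM, whereas Ly6a went from 38.2 ± 0.418 to 4.18 ± 0.373 FPKM and Meis1 from 1.48 ± 0.0278 to 0.236 ± 0.0324 FPKM. The part of these shifts in the receptor levels was not tested. Some markers passed the filter only through 1 group: 4 neutrophil, 4 monocyte and macrophage, 3 eosinophil and 2 progenitor markers. So did 1 mast cell or basophil marker, Cd79b and Pdgfrb. Of the pan-haematopoietic markers, all 5 were detected in both groups and all 5 fell, 2 of them at least 2-fold, with Ptprc, the common leukocyte antigen, at 156 ± 4.40 and 75.3 ± 5.63 FPKM and Itgb2, the beta 2 integrin gene, at 252.4 ± 8.58 and 17.6 ± 0.222 FPKM. Of 6 measured B cell markers 5 lay under 1 FPKM in all libraries, with Ebf1 and Pax5 at or near 0, and Cd79b fell from 2.53 ± 0.196 to 0.284 ± 0.135 FPKM. Of 9 stromal and endothelial markers 8 lay under 1 FPKM in all libraries, with Pdgfra and Cxcl12 at 0, and Pdgfrb rose from 0.603 ± 0.0551 to 18.7 ± 1.59 FPKM.

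The promoters of 8 of the 9 genes were matched in RefSeq (GRCm38.p6), and 5 are printed because they hold motifs of PU.1 or RUNX factors. Spi1 encodes PU.1, known in human cells to bind the CSF3R and CSF2RA promoters, and its RNA fell from 68.8 ± 2.64 to 19.7 ± 2.57 FPKM. Each sequence is the 250 bases before the RefSeq start on the gene's own strand. No GENCODE M21 transcript held the bases just after the RefSeq start of Epor or Il3ra. The windows of Csf3r and Csf2ra reach past the GENCODE starts of these genes, so their PU.1 motifs lie wholly or partly inside the annotated genes. Their positions are chr4:126024409-126024658 (plus strand) for Csf3r, chr19:61228419-61228668 (minus strand) for Csf2ra, chr3:89913197-89913446 (minus strand) for Il6ra, chr15:78305722-78305971 (minus strand) for Csf2rb2 and chr9:21963577-21963826 (minus strand) for Epor. Capitals mark the PU.1 motif GAGGAA or its complement TTCCTC in the first 4, with a STAT motif (TTCNNNGAA) in Csf2rb2 and a GATA motif (AGATAA or TTATCT) in Il6ra. In Epor they mark a RUNX motif (TGTGGT or ACCACA) and a GATA motif.
Csf3r: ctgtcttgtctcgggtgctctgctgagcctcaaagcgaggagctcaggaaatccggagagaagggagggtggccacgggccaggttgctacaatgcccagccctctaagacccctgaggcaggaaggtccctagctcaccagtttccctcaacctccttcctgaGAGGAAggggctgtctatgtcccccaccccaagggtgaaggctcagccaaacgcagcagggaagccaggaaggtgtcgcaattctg
Csf2ra: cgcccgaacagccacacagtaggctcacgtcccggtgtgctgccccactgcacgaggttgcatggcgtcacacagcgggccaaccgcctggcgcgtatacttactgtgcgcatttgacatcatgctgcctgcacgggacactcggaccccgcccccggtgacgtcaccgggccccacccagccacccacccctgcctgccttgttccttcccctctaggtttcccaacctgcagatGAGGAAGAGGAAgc
Il6ra: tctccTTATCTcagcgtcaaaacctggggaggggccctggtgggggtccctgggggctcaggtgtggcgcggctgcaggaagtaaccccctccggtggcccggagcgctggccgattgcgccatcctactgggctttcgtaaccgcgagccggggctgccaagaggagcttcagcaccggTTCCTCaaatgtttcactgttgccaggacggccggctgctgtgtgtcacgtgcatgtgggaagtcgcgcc
Csf2rb2: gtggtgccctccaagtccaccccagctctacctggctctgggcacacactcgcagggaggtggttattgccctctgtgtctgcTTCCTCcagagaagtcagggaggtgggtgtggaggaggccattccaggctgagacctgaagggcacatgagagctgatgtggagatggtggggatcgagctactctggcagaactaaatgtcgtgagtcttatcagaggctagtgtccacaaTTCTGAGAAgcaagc
Epor: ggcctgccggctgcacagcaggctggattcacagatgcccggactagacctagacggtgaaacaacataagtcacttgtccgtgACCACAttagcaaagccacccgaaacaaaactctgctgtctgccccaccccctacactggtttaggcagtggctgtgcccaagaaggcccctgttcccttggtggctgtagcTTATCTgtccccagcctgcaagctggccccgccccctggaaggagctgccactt
Searched on both strands, GAGGAA was found in 4 of 8 receptor promoters and in 23.4% of 32536 promoter windows of the same length. With it, Il6ra, Csf2ra, Csf3r and Csf2rb2 fell 10.9-fold, 5.81-fold, 1.87-fold and 1.22-fold. Without it, Il6st and Ifngr1 fell 9.74-fold and 3.54-fold, and Il3ra and Epor were higher with the fusion. Any role of PU.1 in these levels was not tested. The 2 copies in Csf2ra are adjacent, and those of the other genes stand alone. RUNX letters were found in Epor only, and in 14.0% of all windows. The half-site AGGTCA of the retinoic acid response element was found in 0 of 8 windows, against 14.0% of all. A C/EBP motif (TTGCNNAA) occurred in Il3ra only (9.57% of all). The Il3ra window also reaches past the GENCODE start, and this motif lies inside the annotated gene. GATA letters occurred in 2 of 8 (9.97% of all) and the STAT motif in 1 of 8 (7.04% of all). These matches describe letters in short windows and do not show binding.

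Csf3r encodes the G-CSF receptor, which drives the growth and maturation of neutrophils (ENSMUSG00000028859, chromosome 4, 126024550 to 126044440 on mm10). It stood at 87.8, 70.1 and 73.0 FPKM in empty vector replicates 1, 2 and 3, and at 41.7, 45.4 and 36.7 FPKM in RUNX1-RARA replicates 1, 2 and 3. The lowest control lay well above the highest fusion library. Group means were 77.0 ± 9.47 and 41.2 ± 4.39 FPKM, which is 1.87-fold lower with the fusion (log2 fold change -0.88, SE 0.096, adjusted p = 1.21e-05). Among the mature neutrophil markers, Ltf, the lactoferrin gene, stood at 1650.3 and 2.35 FPKM, and Cxcr2, a neutrophil chemokine receptor gene, at 80.8 ± 5.66 and 49.7 ± 2.56 FPKM. The difference in fold between Csf3r and these genes was not tested. Profiles were compared by distance on the log2(FPKM + 1) scale over the 6 libraries, centred on each gene. The nearest of 8076 other genes were Adam8 (57.0 to 30.8 FPKM) and Mpc1 (41.4 to 23.2 FPKM).

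Csf2ra encodes the alpha chain that binds GM-CSF (ENSMUSG00000059326, chromosome 19, 61223957 to 61228429 on mm10). Its level was 44.7, 37.5 and 50.4 FPKM in the empty vector replicates and 8.29, 8.41 and 6.10 FPKM with the fusion. No fusion library came near the lowest control. The fall was 5.81-fold, from 44.2 ± 6.43 to 7.60 ± 1.30 FPKM, with a log2 fold change of -2.40 (SE 0.12, adjusted p = 3.56e-08). Stk10, a kinase gene of lymphocytes and other blood cells, and Cd74, the class II invariant chain gene, had the nearest profiles.

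The beta chains that complete the GM-CSF, interleukin-3 and interleukin-5 receptors are encoded side by side on chromosome 15. Csf2rb (ENSMUSG00000071713, 78325752 to 78353847 on mm10), the beta common chain, measured 163.3, 156.3 and 165.8 FPKM in controls and 139.0, 148.9 and 133.9 FPKM with the fusion. Csf2rb2 (ENSMUSG00000071714, 78282507 to 78305721), a mouse beta chain used by interleukin-3 alone, measured 114.9, 104.0 and 113.5 FPKM against 91.8, 94.3 and 86.1 FPKM. The groups were separate for both genes, although by narrow gaps. Csf2rb fell 1.15-fold (log2 fold change -0.20, SE 0.060, adjusted p = 0.0109) and Csf2rb2 1.22-fold (-0.29, SE 0.062, adjusted p = 0.00166). The call of Csf2rb was lost after quantile normalization (log2 fold change -0.09, adjusted p = 0.213). Of the 100-base windows in their transcripts, 4.63% for Csf2rb and 6.82% for Csf2rb2 were identical to a stretch of the other gene (12.3% and 18.4% of 50-base windows, 2.30% and 3.34% of 150-base windows). The sources used here do not give the read length, and reads there could have been split or dropped. The nearest profiles were those of Vat1 (42.9 to 37.8 FPKM) and Chst11 (21.7 to 18.5 FPKM) for Csf2rb, and of Rsc1a1 (25.69 to 20.96 FPKM) and Prss57, a granule protease gene (16.0 to 13.0 FPKM), for Csf2rb2.

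Il3ra, the alpha chain that binds interleukin-3 (ENSMUSG00000068758, chromosome 14, 14346275 to 14356011 on mm10), rose. Its level was 4.09, 3.39 and 4.20 FPKM in the controls and 6.62, 7.02 and 5.11 FPKM with the fusion, and the groups did not overlap. The rise was 1.60-fold, from 3.90 ± 0.438 to 6.25 ± 1.01 FPKM, with a log2 fold change of 0.56 (SE 0.11, adjusted p = 6.60e-04). Il5ra, the alpha chain of the interleukin-5 receptor and not among the 9, went from 0.163 ± 0.0655 to 1.37 ± 0.0515 FPKM and was called higher (log2 fold change 1.03, SE 0.065), having passed the filter only through the fusion libraries. Il3ra overlaps an antisense gene on the other strand, and the sources used here leave the strand setting of the counting unstated. F2rl2, a protease-activated receptor gene, and Mmachc, a cobalamin processing gene, had the profiles nearest to that of Il3ra.

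The alpha chains thus moved in opposite directions while both beta chains fell by less than Csf2ra. Within each library, the summed FPKM of Csf2rb and Csf2rb2 was 6.22, 6.94 and 5.55 times that of Csf2ra in the controls and 27.8, 28.9 and 36.1 times with the fusion, a 4.96-fold difference of means. The same sum was 68.0, 76.7 and 66.5 times Il3ra in the controls and 34.8, 34.6 and 43.1 times with the fusion. The ratio of Csf2rb2 to Csf2rb was 0.704, 0.666 and 0.685 in the controls (0.685 ± 0.0191) and 0.661, 0.633 and 0.643 with the fusion (0.646 ± 0.0138). For this ratio the gap between the groups was narrow, and the 2 genes share sequence. Groups were separate for these 3 ratios, and each gave p = 0.1 in a two-sided exact permutation test, the smallest that 3 against 3 libraries allow (adjusted p = 0.167 over 5 ratios). This test therefore could not pass 0.05 for any ratio.

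**Figure D2:**
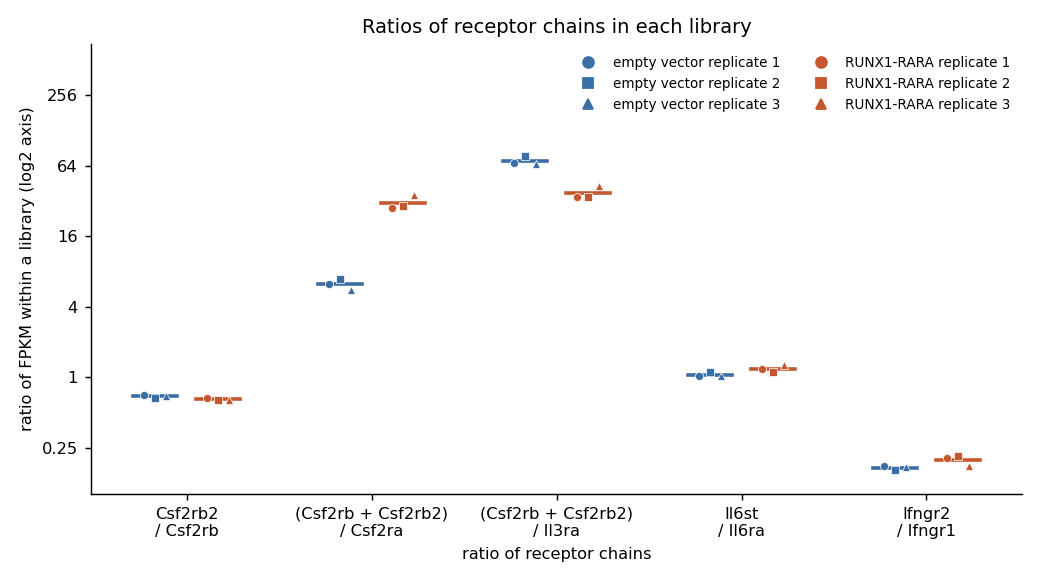
Ratio of FPKM between receptor chains within each library (log2 axis) for 5 pairings; points are libraries and short lines are group means. The ratio of the beta genes to Csf2ra lies between 5.55 and 6.94 in controls and between 27.8 and 36.1 with the fusion, while the Il6st to Il6ra and Ifngr2 to Ifngr1 ratios overlap between groups.

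Both chains of the interleukin-6 receptor fell. Il6ra (ENSMUSG00000027947, chromosome 3, 89864059 to 89913196 on mm10), which binds interleukin-6, measured 8.04, 7.67 and 8.33 FPKM in the controls and 0.703, 0.782 and 0.711 FPKM with the fusion. Il6st (ENSMUSG00000021756, chromosome 13, 112464070 to 112510086), the gene of gp130, measured 8.21, 8.44 and 8.53 FPKM against 0.824, 0.858 and 0.904 FPKM. Every fusion library was under 1 FPKM and every control above 7 FPKM for both genes. Il6ra fell 10.9-fold (log2 fold change -2.38, SE 0.060, adjusted p = 1.29e-10) and Il6st 9.74-fold (-2.33, SE 0.056, adjusted p = 9.98e-11), where the added pseudocount makes the log2 values smaller than the ratios of means. The ratio of Il6st to Il6ra was 1.05 ± 0.0456 in controls and 1.18 ± 0.0874 with the fusion, and the groups overlapped (two-sided exact permutation p = 0.2, adjusted p = 0.2). On the log2(FPKM + 1) scale, Il6st was the second nearest gene to Il6ra in profile, after Clec5a, a myeloid lectin receptor gene (114.8 to 21.2 FPKM). As the pseudocount makes changes of low genes smaller, near profiles on this scale can differ in the ratio of their means. Nearest to Il6st were Oas1g, an interferon-induced gene (5.70 to 0.317 FPKM), and Syne1, a nuclear envelope gene (18.2 to 2.77 FPKM). Il6ra has an antisense gene on the other strand.

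Ifngr1 encodes the ligand-binding chain of the interferon gamma receptor (ENSMUSG00000020009, chromosome 10, 19591949 to 19610229 on mm10). It measured 150.7, 154.8 and 144.7 FPKM in the controls and 41.6, 39.3 and 46.3 FPKM with the fusion. The groups were far apart, and the library that was highest among controls, replicate 2, was the lowest control for 7 of the other genes. The fall was 3.54-fold, from 150.0 ± 5.11 to 42.4 ± 3.57 FPKM, with a log2 fold change of -1.80 (SE 0.067, adjusted p = 2.70e-09). Its partner chain gene Ifngr2 fell from 25.4 ± 0.976 to 8.29 ± 0.179 FPKM (log2 fold change -1.51, SE 0.053). The ratio of Ifngr2 to Ifngr1 was 0.169 ± 0.00842 and 0.197 ± 0.0194, with overlapping groups (two-sided exact permutation p = 0.2, adjusted p = 0.2). The nearest profiles belonged to Sat1, a polyamine acetyltransferase gene (198.1 to 56.7 FPKM), and Ublcp1.

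Epor encodes the erythropoietin receptor (ENSMUSG00000006235, chromosome 9, 21958897 to 21963506 on mm10) and was low throughout. It was listed at 0.241, 0.074 and 0.151 FPKM in the controls and 0.415, 0.506 and 0.445 FPKM with the fusion, and each fusion library lay above each control. At the depths estimated from the steps between low values, these levels correspond to about 43.1, 6.01 and 9.95 reads in the controls and 22.0, 28.0 and 36.0 reads with the fusion. More of these steps were even than odd, so both mates of a fragment may have been counted and separate fragments may be fewer. The ratio of means was 2.93 (0.155 ± 0.0836 and 0.455 ± 0.0464 FPKM), and Epor did not pass the filter. When low genes were kept, its log2 fold change was 0.34 (SE 0.054, adjusted p = 0.0016). Of 15 erythroid markers 4 were tested, of which Hbb-bt, Hemgn and Tfrc rose (46.0% of all tested genes) and Gata1 fell (31.7%). Of the list, 10 lay under 1 FPKM in all 6 libraries, and the summed level was 78.4 to 84.8 FPKM in controls and 124 to 140.1 FPKM with the fusion. Tfrc, the transferrin receptor gene of dividing cells, held most of that sum (71.2 and 81.6 FPKM). Hbb-bt (0.875 ± 0.238 to 28.3 ± 2.39 FPKM) and Hemgn (2.25 ± 0.334 to 16.6 ± 0.897 FPKM) rose by more FPKM than Tfrc.

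The order of the receptor genes changed between the groups, which can be read because FPKM are scaled to gene length. In the controls it ran Csf2rb, Ifngr1, Csf2rb2, Csf3r, Csf2ra, Il6st, Il6ra, Il3ra and Epor, and only Il6st and Il6ra overlapped as neighbours. With the fusion it ran Csf2rb, Csf2rb2, Ifngr1, Csf3r, Csf2ra, Il3ra, Il6st, Il6ra and Epor, and the ranges of Ifngr1 and Csf3r and those of Csf2ra and Il3ra overlapped. The 2 beta genes held 48.3% ± 0.715 of the summed FPKM of the 9 genes in controls and 69.9% ± 0.438 with the fusion. The sum itself was 564 ± 20.2 and 331 ± 14.7 FPKM. Spread among replicates was widest for Epor in controls (coefficient of variation 53.8%) and for Csf2ra and Il3ra in the fusion libraries (17.1% and 16.2%). RUNX1-RARA replicate 3 was the lowest of its group for Csf3r, Csf2ra, Csf2rb, Csf2rb2 and Il3ra and the highest for Il6st and Ifngr1.

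**Figure D3:**
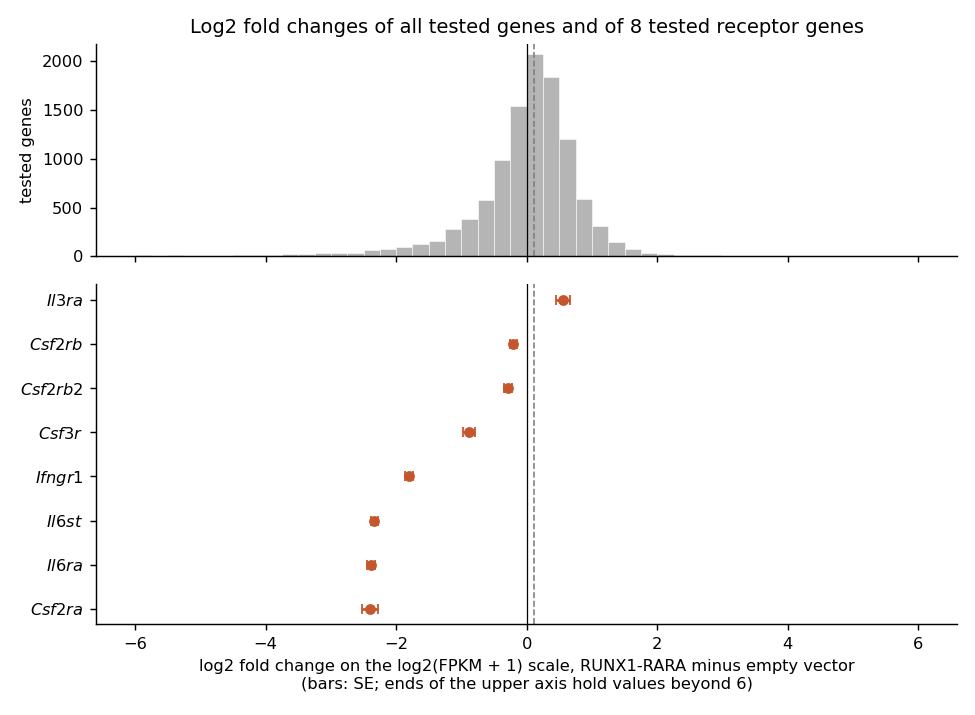
Log2 fold changes on the log2(FPKM + 1) scale (x axis, RUNX1-RARA minus empty vector): the upper panel counts all tested genes in bins of 0.25 and the lower panel shows the 8 tested receptor genes with the SE. The solid line marks 0 and the dashed line the median of all tested genes, 0.11; Il3ra is the only receptor gene to the right of both.

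TMM scaling, which centres most genes near 0, shifted the median of all tested genes by -0.11. Relative to the median of all tested genes, the log2 fold changes were -2.51 for Csf2ra, -2.49 for Il6ra, -2.45 for Il6st, -1.91 for Ifngr1, -0.99 for Csf3r, -0.40 for Csf2rb2, -0.31 for Csf2rb and 0.45 for Il3ra. Each of the 8 kept its direction under every scaling that was run.

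Other cytokine receptor genes split in direction. Of 26 listed, 16 were tested, 6 rose and 8 fell (median log2 fold change -0.12). As 46.0% of all tested genes were called higher and 31.7% lower, calls in both directions do not set a list apart. Il13ra1, a chain for interleukin-13, fell from 11.5 ± 0.891 to 0.512 ± 0.164 FPKM, and Il7r, the interleukin-7 receptor gene of lymphoid cells, from 3.48 ± 0.387 to 0.0293 ± 0.0281 FPKM. Both passed the filter only through the control libraries, so the counts are not independent of the filter. Il10rb fell from 26.7 ± 1.09 to 7.63 ± 0.470 FPKM, but its exons overlap the readthrough gene Gm21970 on the same strand, which also went down from 54.7 to 60.1 FPKM in controls to 20.1 to 21.6 FPKM. Il12rb2, a chain of the interleukin-12 receptor, rose from 2.2 ± 0.349 to 9.89 ± 0.705 FPKM, and it overlaps Serbp1 on the opposite strand.

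Ligand genes were mostly too low to test. All 4 that were tested of 13 fell, against 31.7% of all tested genes. Lif went from 17.4 ± 0.375 to 4.15 ± 0.552 FPKM and Osm, the oncostatin M gene, from 34.2 ± 0.649 to 12.4 ± 0.854 FPKM. Il6 stood at 46.2 ± 3.23 and 39.8 ± 3.65 FPKM (log2 fold change -0.21, SE 0.076, adjusted p = 0.0267). The call of Il6 was lost under 6 of the alternatives, 2 of which drop a library: the estimate was -0.16 (adjusted p = 0.0977) when empty vector replicate 1 was left out and -0.14 (adjusted p = 0.12) when RUNX1-RARA replicate 1 was. Reads listed for Epo (5.26 and 3.24 FPKM) may belong to Gnb2, whose exons overlap it on the same strand at 40.9 to 58.2 FPKM. Il3 and Ifng were listed at 0 in all 6 libraries.

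Genes that carry the signal inward were called in both directions, as were all tested genes (46.0% higher and 31.7% lower). Of 18 kinases, STATs and adaptors 7 rose and 10 fell (median log2 fold change -0.22). Stat5a, which GM-CSF, interleukin-3 and erythropoietin receptors activate, rose from 4.59 ± 0.174 to 10.5 ± 0.898 FPKM (log2 fold change 1.03, SE 0.069), and Stat5b from 14.0 ± 0.552 to 17.0 ± 0.061 FPKM. Stat3, the main STAT of interleukin-6, fell from 24.5 ± 0.620 to 20.1 ± 0.795 FPKM. Stat3 and Stat5a overlap each other on opposite strands. The SRC family kinase gene Lyn fell from 63.4 ± 1.10 to 27.8 ± 0.618 FPKM. Jak2, the kinase of the beta common and erythropoietin receptors, was not called (63.4 ± 3.80 and 61.6 ± 2.46 FPKM), although it was called lower after TMM scaling (-0.16, adjusted p = 0.0274). Jak1 was called lower (log2 fold change -0.16) and Jak3 higher (0.26), and the call of Jak3 was lost after TMM scaling (0.15, adjusted p = 0.111). The exons of Jak3 overlap Insl3 on the same strand, and reads there may belong to either gene. Insl3 stood at 1.395 to 1.934 FPKM in controls and at 2.566 to 3.923 FPKM with the fusion. Jak1 was no longer called when replicate 2 of the controls (-0.14, adjusted p = 0.0782) or of the fusion group (-0.13, adjusted p = 0.0896) was dropped, nor after quantile normalization (-0.09, adjusted p = 0.114), which gave the highest p of its 5 lost calls.

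Negative regulators were 4 higher and 10 lower of 15 (median log2 fold change -0.34), against 46.0% higher and 31.7% lower of all tested genes. Ptpn6, the phosphatase SHP-1, fell from 120.7 ± 5.23 to 38.5 ± 1.95 FPKM and Ptpn1 from 30.2 ± 0.446 to 9.80 ± 0.430 FPKM. The SOCS genes, which are induced by STATs and block their receptors, differed in direction. Socs3, an inhibitor that binds gp130 and the G-CSF receptor, fell from 21.9 ± 1.5 to 10.3 ± 0.327 FPKM, whereas Socs2 rose from 3.55 ± 0.165 to 8.10 ± 0.0469 FPKM and Socs1 from 1.73 ± 0.138 to 3.02 ± 0.359 FPKM.

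Known response genes split as well, as did all tested genes (46.0% called higher and 31.7% lower). Of 16 STAT5 and STAT3 response genes 7 rose and 8 fell (median log2 fold change -0.10). Il2ra, the interleukin-2 receptor alpha gene, rose from 0.302 ± 0.016 to 17.7 ± 0.477 FPKM and Pim2, a survival kinase gene, from 10.2 ± 0.479 to 34.2 ± 2.42 FPKM. Bcl6 fell from 8.20 ± 0.152 to 0.861 ± 0.0665 FPKM and Bcl3 from 6.29 ± 0.316 to 0.543 ± 0.157 FPKM, both of them transcriptional regulators. Il2ra passed the filter only through the fusion libraries, and Bcl6 and Bcl3 only through the controls. Of 14 tested interferon gamma response genes 4 rose and 6 fell (median -0.10), with Irf8 (5.68 ± 0.0938 to 1.64 ± 0.251 FPKM), Irf1 (16.8 ± 0.392 to 8.70 ± 0.466 FPKM) and Gbp2 (4.31 ± 0.293 to 2.22 ± 0.119 FPKM) among those that fell. Among those that rose were Psmb8 (36.8 ± 1.06 to 52.9 ± 2.54 FPKM), with an antisense gene on the other strand, and Irgm1 (5.17 ± 0.133 to 6.48 ± 0.159 FPKM). Of 9 tested transcription factors of myeloid receptor promoters 3 rose and 6 fell (median -0.74). Besides Spi1, Cebpb fell from 22.7 ± 6.51 to 4.85 ± 1.49 FPKM, with an opposite-strand overlap by Tmem189, and Cebpe, a factor of granulocyte maturation, from 56.8 ± 1.67 to 27.1 ± 3.63 FPKM. Myb, with an antisense gene on the other strand, rose from 96.9 ± 2.79 to 164 ± 6.46 FPKM, and Gata2 from 47.4 ± 0.695 to 53.9 ± 1.38 FPKM.

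**Figure D4:**
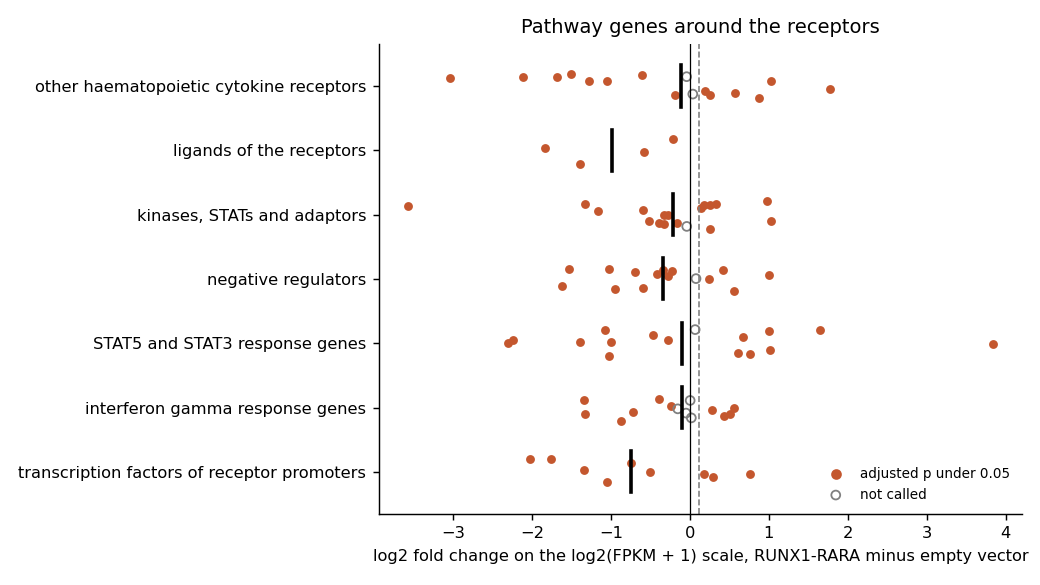
Log2 fold change on the log2(FPKM + 1) scale (x axis, RUNX1-RARA minus empty vector) of each tested gene in 7 lists around the receptors; filled points are called, open points are not, black ticks are list medians, the solid line is 0 and the dashed line is the median of all tested genes (0.11). Each list but the ligands holds genes called in both directions, as do all tested genes (46.0% higher and 31.7% lower).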

How the data were processed

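RNA-seq of 3 empty vector and 3 RUNX1-RARA libraries was grouped by the genotype label. The authors deposited FPKM values with 3 decimals, 1 column per library. Per the submitters' processing notes, tools named without a role are DESeq2 1.32.0, fastp 0.22.0, featureCounts 2.0.1 and HISAT2 2.2.1, with the builds mm10 and hg38. The sources used here do not give the annotation release, the treatment of multi-mapped reads or whether counting used strand. Nothing says whether replicates are separate mice or cultures, so p-values cover the spread between libraries, and that spread may be technical.

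The FPKM steps of low genes, times GENCODE M21 exon length on mm10, gave an estimate of reads per library. It came to 26.6 to 89.8 M reads per library, with 76.9% to 89.5% of low values within 0.1 of a whole read. Of those near-whole values 65.8% to 73.0% were even, so reads may include both mates of a fragment. As not nearly all values were whole, no count test was run. Between 10375 and 10552 genes reached 1 FPKM. The lowest Pearson's r between replicates, across genes, was 0.996, and no replicates were merged.

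Genes with at least 1 FPKM in 3 of 6 libraries were tested with limma 3.58.1 (R 4.3.3) on log2(FPKM + 1), with trended moderation and Benjamini-Hochberg adjustment over all tested genes. The pseudocount makes changes of low genes smaller. The fit code was checked on simulated data with independent noise and far fewer changed genes than were called here. That check therefore does not vouch for the p-values of these data. Ratios were compared with exact permutation tests (SciPy 1.17.1). TMM factors were computed on FPKM. The members and lists were chosen with earlier results of these data known. Named genes were the 9 receptors, the 4 called genes of largest change per list, and the JAK, STAT and SOCS genes of the lists. The rule also named Ifngr2 and Il5ra, and the 2 nearest profiles per tested receptor gene. Other genes are markers, overlapping genes or list genes picked after their values had been seen. Some genes that this rule names are not reported here.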

Additional observations from a re-analysis of the deposited data

How the results depend on the processing

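Of the 8 tested receptor genes, each kept its direction under the 16 alternatives tried, except that Il6ra and Il6st had no value when 1 FPKM was required in all libraries. The 7 genes other than Csf2rb also kept their call wherever they were tested. Csf2rb lost its call after quantile normalization (log2 fold change -0.0892, adjusted p = 0.213), and the cause was not tested. Requiring 1 FPKM in all libraries left 1125 genes (1727 as reported) and 2 receptor genes (4 as reported) called at 2-fold or more, since fewer genes are then tested. At that fold, 5 receptor genes were called after TMM scaling, Csf3r being added, and 2322 genes were called with a pseudocount of 0.1. The log2 difference of Epor was 0.34, and it became 0.55 with a pseudocount of 0.5 and 1.17 with a pseudocount of 0.1, since a smaller pseudocount enlarges changes of low genes. Leaving out each replicate in turn gave 8 called receptor genes each time. With the replicate number as a block, 8230 genes and 8 receptor genes were called, and Jak1 lost its call (-0.16, adjusted p = 0.0611), as it did with equal sums (0.057). Deviations of same-numbered libraries from their group means correlated across genes at 0.0219, -0.375 and -0.0647, and those of other pairs at -0.307 to 0.396. As deviations within a group cancel out, these values cannot show whether same-numbered libraries share a source. The call of Il6 was lost with low genes kept (adjusted p = 0.0561), after quantile normalization (0.108), with equal sums (0.0511) and with equal sums without mitochondrial and mature neutrophil genes (0.0562). The 5 chain ratios kept their direction under each alternative, and the exact test allows no p under 0.1. Depth limits Epor most, with 6.01 to 43.1 estimated reads per library.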

Other observations

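Receptor pairs outside the 9 genes were looked at after their values had been seen. The chains of the interleukin-4 and interleukin-13 receptor went apart: Il4ra rose, with means of 26.9 ± 0.511 and 40.6 ± 0.966 FPKM (SD, n = 3 each, log2 fold change 0.58, SE 0.049), while Il13ra1 fell. The listed values of the interleukin-10 receptor chains showed the same split, with Il10ra at 10.7 ± 0.525 and 20.5 ± 0.474 FPKM (log2 fold change 0.88, SE 0.055, called higher) and Il10rb lower. As the exons of Il10rb overlap Gm21970 on the same strand, its fall cannot be assigned to Il10rb alone. Il2rg, the common gamma chain gene, was abundant and was not called (87.8 ± 6.21 and 89.9 ± 1.41 FPKM). Pik3cd, a kinase gene of blood cells downstream of many of these receptors, rose from 33.8 ± 0.951 to 67.3 ± 2.48 FPKM.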
